A study of Mus musculus with 12 samples.

Results

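Transcript levels of 9 genes that protect chromosome ends were followed over 12 RNA-seq libraries of sorted mouse spermatogonia. The genes were Terf1, Terf2, Terf2ip, Tinf2, Pot1a, Pot1b and Acd, which encode the shelterin complex, with Rtel1 and Ctc1, which act with it. They were taken by symbol from the deposited table, and all 9 matched 1 row each of its 53715 genes. Spermatogonia are the premeiotic germ cells of the testis, and they divide by mitosis. The libraries form 4 groups of 3: WT at 3 months, Tet1KO at 3 months, WT at 11 months and Tet1KO at 11 months, all on a C57BL6/129 background. TET1 oxidises 5-methylcytosine in DNA. The labels name the genotype Tet1KO without saying which exons the allele lacks or whether it is lost in all cells, and they do not name the markers used for sorting. Each library was made from 1000 sorted cells with Smart-seq2, which copies whole transcripts into cDNA. Nothing in the labels ties the libraries of a group to separate animals, and the p-values therefore rest on a spread between samples that may be technical.

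Mammalian telomeres are repeats of TTAGGG that end in a single-stranded overhang. Shelterin covers both parts, folds the overhang into a loop and keeps the end from being read as a DNA break by the ATM and ATR kinases. In the germ line, telomere length has to be kept over many divisions of the spermatogonia, and later, in meiotic prophase, the telomeres attach to the nuclear envelope. Mice carry a pair of POT1 genes, Pot1a and Pot1b, where humans carry a single one.

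The libraries held 8325159 to 18223645 counts. The germ cell genes Ddx4 (261 to 386 CPM) and Dazl (1651 to 2503 CPM) were abundant in all 12. CPM here is the count scaled to a common library size, after adjustment with TMM factors. Summed over each list, 10 markers of undifferentiated spermatogonia stood at 135 to 288 CPM, 7 of differentiating spermatogonia at 530 to 1375 CPM and 8 of spermatocytes at 1788 to 4624 CPM. The spermatocyte sum was the highest of these 3 in every library, over markers whose levels are not matched between lists. Genes of other stages and cells were also counted: the spermatid gene Prm1 at 77.7 to 747 CPM, the smooth muscle gene Acta2 at 3.39 to 188, the leukocyte gene Ptprc at 0.933 to 15.3 and the Sertoli gene Sox9 at 0.11 to 3.86. The Leydig gene Cyp17a1 was at 0 in 11 of 12 libraries, where a count of 0 allows up to 0.36 CPM in the shallowest library. Tet1 itself had 0 to 18 counts per library and did not separate the genotypes, and the genotype of a library is given here as labelled, since whole-gene counts cannot check an allele whose lost exons are not named. WT replicate 1 and Tet1KO replicate 2 of 3 months stood apart from the other libraries on the first principal component (39.0% of the variance, scores -131 and -121 against -38.9 to 55.9). In such bulk samples, fewer cells of a type and less RNA per cell cannot be told apart.

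All 9 genes were detected in all 12 libraries, with at least 117 counts each (Rtel1 in WT replicate 3 of 11 months) and at most 3361 (Ctc1 in Tet1KO replicate 2 of 3 months). Compared per kilobase of the summed exon length that the authors deposited, the genes formed 3 tiers. The upper tier held Tinf2 at 27.6 ± 4.65 CPM per kilobase (SD over 12 libraries), Acd at 24.8 ± 6.70 and Ctc1 at 24.3 ± 8.31. The middle tier held Pot1b at 9.18 ± 2.89, Terf1 at 9.16 ± 3.17 and Terf2ip at 8.21 ± 1.57. The lower tier held Pot1a at 4.21 ± 0.897, Terf2 at 4.01 ± 0.62 and Rtel1 at 3.27 ± 0.805. In each of the 12 libraries the same 3 genes took places 1 to 3, the next 3 places 4 to 6 and the last 3 places 7 to 9. In the upper and middle tiers, neighbouring genes differed by less than the SD of either. In the lower tier, Terf2 and Rtel1 differed by more than the SD of Terf2 but less than that of Rtel1. Of the 19815 genes tested, 86.4% had a lower mean per kilobase than Tinf2 and 49.2% a lower one than Rtel1.

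These tiers depend in part on the gene length used, and the place of Tinf2 also on exons it shares with another gene, as given below. The deposited length counts the exons of every annotated transcript, which for Pot1a comes to 8669 bases against 3151 bases in its longest protein-coding transcript. For Pot1b both lengths are alike, at 3499 and 3523 bases. With the length of the longest coding transcript in GENCODE vM21, a choice made after seeing the data, Pot1a stood at 11.6 CPM per kilobase and Pot1b at 9.12, so that their order turned. Tinf2 (46.1), Ctc1 (39.6) and Acd (28.5) remained the upper 3 and Terf2 (6.91) and Rtel1 (4.91) the lowest 2, with Terf1 at 18.6 and Terf2ip at 11.4 between them.

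**Figure D1:**
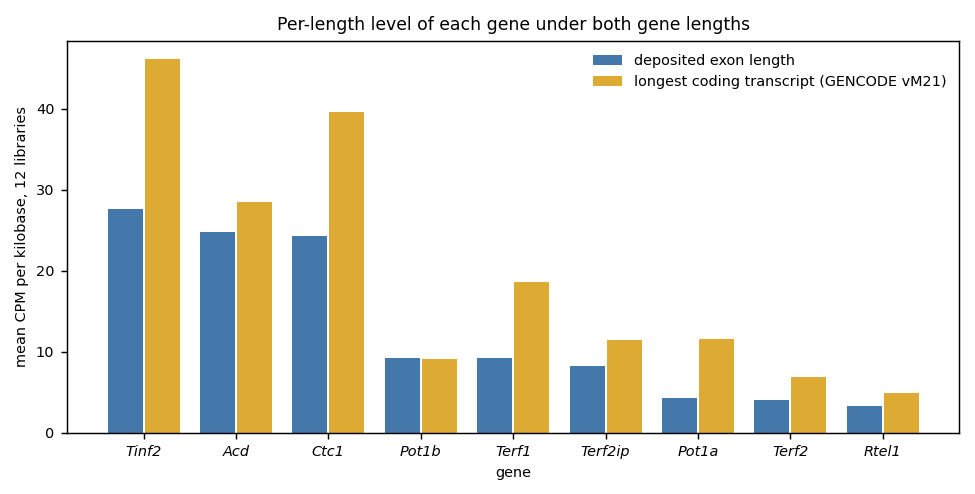
Mean level of each gene over the 12 libraries, in CPM per kilobase, with the deposited exon length (blue bars) and with the longest coding transcript (yellow bars). With all Tinf2 counts kept, Tinf2, Acd and Ctc1 are the highest 3 under both lengths, while Pot1a moves from 4.21 to 11.6 and passes Pot1b.

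Terf1 and Terf2 encode the proteins that bind double-stranded telomere repeats directly. TERF1 helps replication forks pass the repeats, and TERF2 forms the loop and holds back ATM and end joining. Terf1 (chromosome 1, 15805646 to 15844052, plus strand, mm10) stood at 26.2, 30.7 and 46.3 CPM in WT replicates 1 to 3 and at 42.6, 33.2 and 77.8 CPM in Tet1KO at 3 months. At 11 months it stood at 54.2, 32.4 and 49 CPM in WT and at 36.4, 27.6 and 50 CPM in Tet1KO. Its highest value, in Tet1KO replicate 3 of 3 months, lay 2.97 times above its lowest, and at both ages the genotypes overlapped. The fitted log2 fold change of Tet1KO against WT was 0.57 ± 0.35 (SE) at 3 months, and 0.13 without that library, and -0.25 ± 0.35 at 11 months. Without 1 library the 11-month value ran from -0.50 (without Tet1KO replicate 3) to -0.065 (without Tet1KO replicate 2). Neither passed edgeR's quasi-likelihood test, with an adjusted p of 1 for each.

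Terf2 (chromosome 8, 107069400 to 107096547, minus strand) was among the steadiest of the genes. It stood at 15.7, 14.3 and 20.7 CPM in WT and 22.5, 15.5 and 15.9 CPM in Tet1KO at 3 months. At 11 months the values were 17.3, 19.3 and 16.7 CPM in WT and 21.6, 21.0 and 21.0 CPM in Tet1KO. The 3 Tet1KO libraries of 11 months lay close together and above the 3 WT libraries of that age, though by little. The log2 fold change was 0.26 ± 0.20 (SE) at 11 months and 0.091 ± 0.20 at 3 months, neither past the threshold. Per kilobase, Terf1 was above Terf2 in all 12 libraries, by 1.31 to 4.89 times.

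Tinf2 and Acd encode the bridge of the complex. TINF2 ties TERF1 and TERF2 together, and ACD, also called TPP1 but unrelated to the peptidase gene of that symbol in mice, joins POT1 to TINF2 and recruits telomerase. Their start regions are shown because they hold the most and the fewest CG of these genes, CG being the sites where most DNA methylation of mammals lies. Both are from RefSeq, build GRCm38.p6, with 250 bases before and 50 bases after the annotated start, printed 5′ to 3′ on the gene's strand with each CG in capitals. RefSeq start regions were found for 8 of the 9 genes.
Tinf2, chr14:55681768-55682067, minus strand: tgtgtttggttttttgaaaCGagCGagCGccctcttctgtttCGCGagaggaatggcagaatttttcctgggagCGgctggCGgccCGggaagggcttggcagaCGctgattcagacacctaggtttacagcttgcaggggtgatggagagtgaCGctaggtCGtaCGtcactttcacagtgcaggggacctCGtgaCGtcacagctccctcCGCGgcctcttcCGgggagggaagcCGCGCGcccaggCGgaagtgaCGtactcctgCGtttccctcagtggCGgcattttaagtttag
Acd, chr8:105701179-105701478, minus strand: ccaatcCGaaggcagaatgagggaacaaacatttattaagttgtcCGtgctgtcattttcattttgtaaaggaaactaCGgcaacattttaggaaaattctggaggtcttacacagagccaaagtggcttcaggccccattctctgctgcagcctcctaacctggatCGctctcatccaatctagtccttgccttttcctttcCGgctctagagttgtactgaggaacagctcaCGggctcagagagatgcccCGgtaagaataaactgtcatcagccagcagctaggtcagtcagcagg
The Tinf2 sequence holds 24 CG, the most of the 8 genes, and the Acd sequence 7, the fewest. The Acd sequence lies wholly upstream of the gene as counted, whose 5′ end is at 105701102. Its RefSeq start thus differs from the annotation behind the counts. Whether a start in that annotation would hold as few CG was not tested. Terf2 and Rtel1 hold 18 each, Pot1a 22, Terf2ip and Ctc1 16 each and Pot1b 15. Over the 32851 start regions of this length, the median was 7, and 94.6% held at least 1. CG reads the same on both strands, so each site was counted once. DNA methylation was not among the data analysed here.

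Tinf2 (chromosome 14, 55674689 to 55681820, minus strand) stood at 115, 113 and 115 CPM in WT and 137, 118 and 149 CPM in Tet1KO at 3 months. The 11-month values were 133, 179 and 158 CPM in WT and 169, 133 and 115 CPM in Tet1KO. The WT libraries of 3 months were nearly alike and lay below all 3 libraries of both other groups they were compared with, Tet1KO of 3 months and WT of 11 months, while the 11-month genotypes overlapped. The log2 fold change of 11 against 3 months in WT was 0.45 ± 0.16 (SE), with an unadjusted p of 0.0179 and an adjusted p of 0.774 in edgeR. Without 1 library it ran from 0.35 to 0.58, and its adjusted p was at least 0.658. Tet1KO against WT gave 0.24 ± 0.16 at 3 months and -0.17 ± 0.16 at 11 months, neither past the threshold. Without Tet1KO replicate 3 of the same age these became 0.15 at 3 months and -0.053 at 11 months, and without Tet1KO replicate 1 the 11-month value was -0.34.

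The Tinf2 level has a limit. Its exons share 1540 bases, 31.2% of their length, with Gmpr2 on the opposite strand, and fragments there were counted for both genes without strand. If every Gmpr2 fragment were shared, 45.6 to 74.0% of the Tinf2 counts of a library would be. Tinf2 alone would then stand at 12.1 CPM per kilobase on average (6.04 to 19.3). This is below the means of Acd (24.8) and Ctc1 (24.3) and above that of Pot1b (9.18). The place of Tinf2 in the upper tier is therefore not secured by these counts. On that lower bound, Tinf2 stood at 39.4 to 42.5 CPM in WT of 3 months, 44.1 to 78.3 in Tet1KO of 3 months, 53.0 to 95.1 in WT of 11 months and 29.8 to 91.9 in Tet1KO of 11 months. WT of 3 months thus stayed below both groups it was compared with on this bound too.

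Acd (chromosome 8, 105695860 to 105701102, minus strand) stood at 73.6, 93.2 and 50.8 CPM in WT and 91.9, 95 and 95.6 CPM in Tet1KO at 3 months. Those of 11 months had 93.7, 130 and 96.7 CPM in WT and 107, 111 and 42.4 CPM in Tet1KO. A pair of libraries from different groups, WT replicate 3 of 3 months and Tet1KO replicate 3 of 11 months, was low, and the other 10 lay between 73.6 and 130 CPM. In the same 2 libraries the ratio of Tinf2 to Acd per kilobase was highest, at 1.66 and 1.99, against 0.883 to 1.20 in the others. The low Acd values themselves raise this ratio, so it is no separate observation. The log2 fold changes were 0.38 ± 0.32 (SE) at 3 months, and 0.20 without the low WT library, and -0.30 ± 0.32 at 11 months, which became 0.025 without the low Tet1KO library. WT of 11 months lay above WT of 3 months in every library, with the nearest values at 93.7 and 93.2 CPM (0.56 ± 0.32, adjusted p = 0.774 in edgeR), and by 0.38 without the low one. Carmil2, which overlaps Acd on the opposite strand, could account for at most 2.80% of all Acd counts, and at most 2.20 to 5.80% in single libraries.

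Terf2ip encodes RAP1, which sits on TERF2 and limits recombination at telomeres. Terf2ip (chromosome 8, 112011398 to 112020528, plus strand) stood at 25.3, 38.2 and 52.5 CPM in WT and 35.8, 31.6 and 40.9 CPM in Tet1KO at 3 months. In the 11-month libraries the level was 44.9, 46.3 and 39.9 CPM in WT and 51.4, 38.2 and 43.8 CPM in Tet1KO. The widest range was within a single group, WT of 3 months, which held both the lowest and the highest of all 12 values. The log2 fold changes of Tet1KO against WT were -0.097 ± 0.23 (SE) at 3 months and 0.025 ± 0.23 at 11 months. The 3-month value turned to 0.21 without WT replicate 3. A short overlap with Gm6793 (108 bases) could hold at most 11.5% of all Terf2ip counts, and at most 7.31 to 17.9% in single libraries.

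Pot1a and Pot1b encode the proteins that coat the single-stranded overhang. POT1A holds back ATR signalling, and POT1B limits the trimming of the opposite strand. Pot1a (chromosome 6, 25743737 to 25809246, minus strand) stood at 40.6, 33.3 and 30.5 CPM in WT and 52.4, 29.0 and 29.0 CPM in Tet1KO at 3 months. At 11 months it stood at 25.5, 39.6 and 41.1 CPM in WT and 45.8, 36.1 and 35.5 CPM in Tet1KO. The group means lay close together, from 34.8 ± 5.22 CPM (SD, n = 3) in WT of 3 months to 39.1 ± 5.76 CPM in Tet1KO of 11 months, and the groups overlapped at both ages. The log2 fold changes of Tet1KO against WT were 0.078 ± 0.26 (SE) at 3 months, which turned to -0.25 without Tet1KO replicate 1, and 0.15 ± 0.26 at 11 months.

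Pot1b (chromosome 17, 55652025 to 55712628, minus strand) stood at 35.5, 21.9 and 48.2 CPM in WT and 29.4, 34.0 and 18.7 CPM in Tet1KO at 3 months. At 11 months it stood at 31.4, 23.2 and 50.7 CPM in WT and 27.7, 24.8 and 40.3 CPM in Tet1KO. Every group spread over more than the distance between any pair of group means, which ran from 27.4 to 35.2 CPM. The log2 fold changes of Tet1KO against WT were -0.36 ± 0.36 (SE) at 3 months and -0.18 ± 0.35 at 11 months. They were -0.040 without WT replicate 3 of 3 months and 0.17 without WT replicate 3 of 11 months. Per kilobase of deposited length, Pot1b was above Pot1a in all 12 libraries, by 1.39 to 3.92 times, but with coding transcript lengths in only 5 of 12, with a ratio of 0.501 to 1.41. Which of these paralogues is the more abundant therefore cannot be told from gene-level counts.

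Ctc1 encodes the large subunit of the CST complex, which fills in the strand opposite the overhang together with STN1 and TEN1. Ctc1 (chromosome 11, 69015911 to 69036473, plus strand) stood at 179, 275 and 164 CPM in WT and 118, 181 and 188 CPM in Tet1KO at 3 months. In the older groups it stood at 181, 79 and 233 CPM in WT and 82.5, 161 and 140 CPM in Tet1KO. Ctc1 had the widest range of the 9 genes, 3.48 times between its highest and lowest library, and the low values of 79, 82.5 and 118 CPM came from 3 different groups. The log2 fold changes of Tet1KO against WT were -0.34 ± 0.38 (SE) at 3 months, and -0.071 without WT replicate 2, and -0.37 ± 0.38 at 11 months, and -0.041 without WT replicate 3. The partners were measured as well: Ten1 had group means of 50.3 ± 7.21 (SD, n = 3) to 61.4 ± 8.26 CPM and Stn1 of 14 ± 2.86 to 17.1 ± 5.20 CPM. Neither passed the test in any of the 5 comparisons. The smallest p of this pair was that of Ten1 at 3 months (-0.082 ± 0.15, SE) and of Stn1 at 11 months (-0.25 ± 0.25), in log2 fold change.

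Rtel1 encodes a helicase that opens the telomere loop during replication. Rtel1 (chromosome 2, 181319739 to 181356616, plus strand) stood at 19, 21 and 16.4 CPM in WT and 17.4, 19.1 and 22.6 CPM in Tet1KO at 3 months. At 11 months it stood at 22.0, 24.1 and 12.8 CPM in WT and 25.6, 33.0 and 26.2 CPM in Tet1KO. The 3 Tet1KO libraries of 11 months were the highest of all 12, and the other 9 lay between 12.8 and 24.1 CPM. The log2 fold change of Tet1KO against WT was 0.52 ± 0.24 (SE) at 11 months (unadjusted p = 0.0475, adjusted p = 1 in edgeR) and 0.066 ± 0.24 at 3 months. It was 0.28 without WT replicate 3 of 11 months, the lowest library, and 0.695 without WT replicate 2. Between same-numbered libraries of 11 months, the distance from WT to Tet1KO was 0.22, 0.45 and 1.02 log2 CPM, uneven over the pairs. With the replicate number as a block the fold change was 0.54 ± 0.22 over all groups, with an adjusted p of 1, and 0.55 ± 0.20 in the 11-month groups alone, with an adjusted p of 0.999. The difference between the ages was not past the threshold (interaction 0.46 ± 0.33, adjusted p = 1), and was 0.21 without the lowest WT library.

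**Figure D2:**
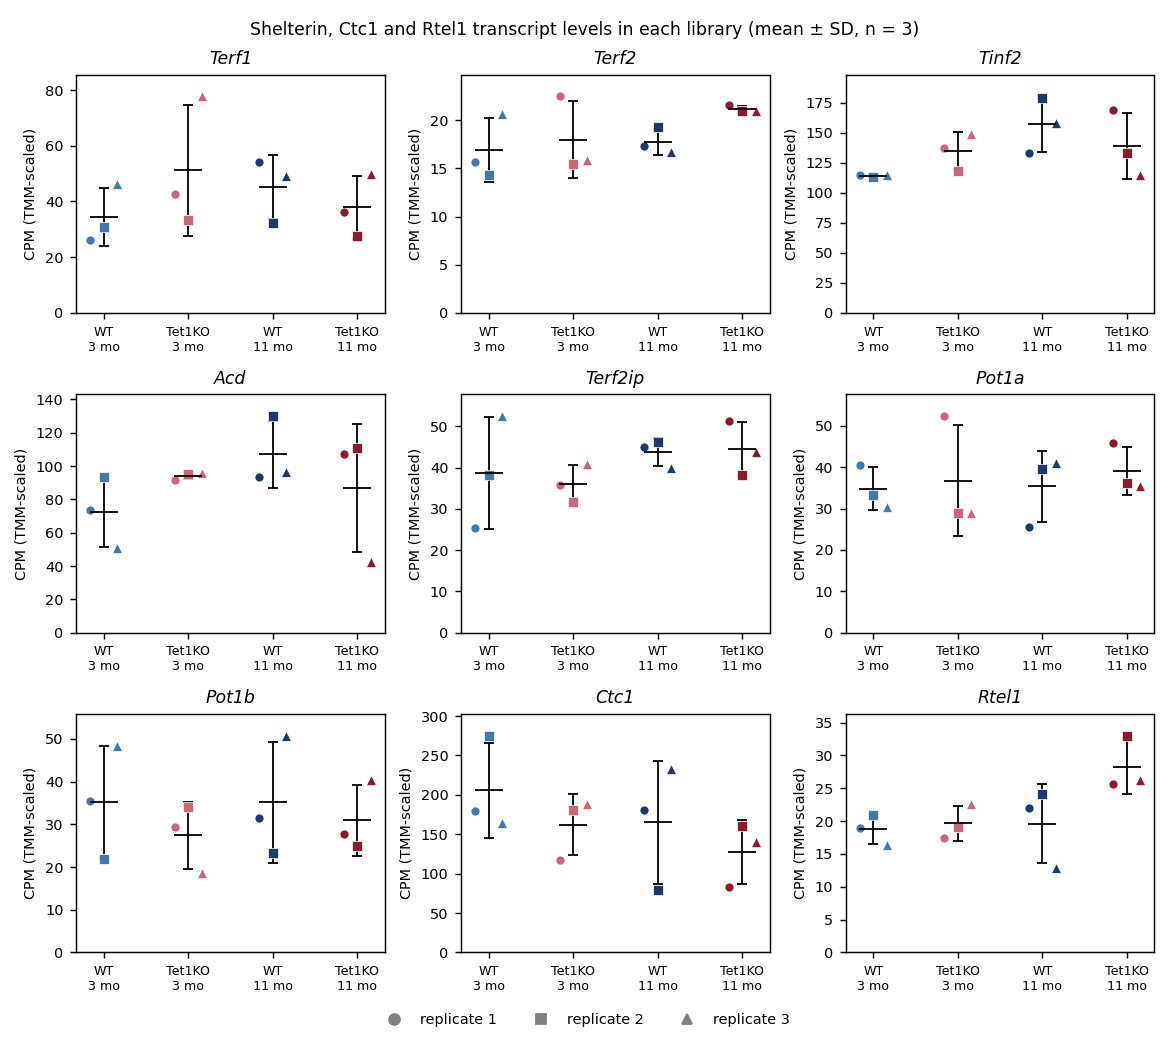
Level of each gene in every library, in TMM-scaled CPM on axes that start at 0, with 1 symbol per replicate and bars for the mean ± SD of each group (n = 3). Rtel1 reaches 25.6 to 33.0 CPM in Tet1KO of 11 months, above the other 9 libraries, while the genotypes overlap at both ages for Terf1, Acd, Terf2ip, Pot1a, Pot1b and Ctc1.

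At 3 months, the question of whether Tet1KO spermatogonia differ from WT in these genes gave no call. Of the 9 genes, 0 passed edgeR's quasi-likelihood test at an adjusted p of 0.05, as did 0% of all 19815 genes, and 0 had an unadjusted p under 0.05, against 1.14% of all genes. DESeq2, which called 2 of all genes, and limma-voom, which called 0, called 0 of the 9 as well. In limma-voom, Terf1 (0.0275) and Tinf2 (0.0488) had an unadjusted p under 0.05, as did 552 of all 19815 genes. With the replicate block in edgeR, Terf1 (0.034) did, as did 337 of all genes, but same-numbered libraries were not taken as pairs at 3 months. In edgeR, fold changes were above 0 for 6 genes and below 0 for 3, with a median of 0.078 (log2) beside -0.022 over all genes. Only Tinf2 had libraries that did not overlap between the genotypes (1 of 9 genes higher, against 3.32% of all genes higher and 3.62% lower). Its 3 Tet1KO libraries also differed from WT in the Sertoli list, whose 9 markers summed to 90.5 to 278 CPM in WT and 21.2 to 78.3 CPM in Tet1KO, with all 9 counted in every library of both groups. Sox9 of this list overlapped between the genotypes, at 0.134 to 3.86 CPM in WT and 0.192 to 0.755 CPM in Tet1KO. The 5 Leydig markers, of which 1 was counted in every library, summed to 4 to 4.46 CPM in WT and 5.68 to 13.2 CPM in Tet1KO, with Cyp17a1 at 0 in all 3 Tet1KO libraries. The part of these cells in the Tinf2 values was not tested. The 95% intervals of 5 of the 9 genes lay within a 2-fold change either way. The widest bounds were -1.18 for Ctc1 and 1.34 for Terf1.

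At 11 months the result was alike in its counts, with other genes leading. Of the 9 genes, 0 passed in edgeR (0% of all genes), DESeq2 (3 of all genes) or limma-voom (0 of all genes). In edgeR 1 gene, Rtel1, had an unadjusted p under 0.05, against 1.65% of all genes. The unadjusted p of Rtel1 was 0.0633 in DESeq2 and 0.03 in limma-voom. With edgeR it was 0.0946 with only the compared groups and 0.037 with the replicate block. In the main edgeR fit, fold changes were above 0 for 4 genes and below 0 for 5, with a median of -0.17 beside 0.024 over all genes. Terf2 and Rtel1 had libraries that did not overlap, both higher in Tet1KO (2 of 9 genes, against 2.82% of all genes higher and 2.54% lower). Peritubular myoid markers separated the same groups, with 6 markers that summed to 71.4 to 241 CPM in WT and 22.9 to 54.9 CPM in Tet1KO. Of these 6, all were counted in every WT library and 5 in every Tet1KO library, and Acta2 was above 0 in all 12 libraries. Their part in the values of Terf2 and Rtel1 was not tested. Intervals of 5 of 9 genes lay within 2-fold, and the widest bounds were -1.21 for Ctc1 and 1.04 for Rtel1.

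Between 3 and 11 months, 0 of the 9 genes passed in edgeR, DESeq2 or limma-voom in WT or in Tet1KO (0% of all genes in edgeR for both, and 0 and 5 of all genes in DESeq2). In WT, Tinf2 alone had an unadjusted p under 0.05 in the main edgeR fit, against 5.67% of all genes. That of Acd was 0.0465 in edgeR with only the compared groups, 0.043 with the replicate block, 0.101 in DESeq2 and 0.179 in limma-voom. Tinf2 and Acd were higher at 11 months in every library (2 of 9, against 5.42% of all genes higher and 6.12% lower). The sum of the germ cell list also separated these groups, with 5 of 5 markers counted in every library and sums of 2850 to 3261 CPM at 3 months and 2673 to 2728 CPM at 11 months. Singly, Ddx4 (310 to 334 and 261 to 348 CPM) and Dazl (1966 to 2503 and 1809 to 2026 CPM) overlapped between the ages. The sum of the Leydig list separated the groups as well, at 4 to 4.46 and 4.93 to 6.94 CPM, with Cyp17a1 at 0 in all 3 libraries of 11 months. The part of either was not tested. In Tet1KO, Rtel1 alone had an unadjusted p under 0.05 (0.52 ± 0.24, SE, unadjusted p = 0.0475, adjusted p = 1 in edgeR), against 2.33% of all genes. Rtel1 had an unadjusted p of 0.0629 in DESeq2 and 0.0562 in limma-voom. It was also the only gene of the 9 without overlap (higher at 11 months, against 3.10% of all genes higher and 3.09% lower). The peritubular myoid list, with 6 of 6 markers counted in every library and 78.3 to 372 CPM at 3 months, and 5 of 6 and 22.9 to 54.9 CPM at 11 months, separated the same libraries, and its part was not tested. The age and genotype comparisons share libraries, and both values of Rtel1 rest on the same 3 Tet1KO libraries of 11 months.

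The interaction asks whether the genotype difference changed with age. Of the 9 genes, 0 passed in edgeR (0% of all genes), DESeq2 or limma-voom. In edgeR, 0 had an unadjusted p under 0.05, against 1.57% of all genes. Terf1 alone did in limma-voom, at -1.12 ± 0.48 (SE, unadjusted p = 0.038, adjusted p = 0.999), as did 403 of all 19815 genes. With the replicate block in edgeR, Terf1 was at -0.80 ± 0.30 (unadjusted p = 0.0226), where 440 of all genes had an unadjusted p under 0.05. That block ties same-numbered libraries across all 4 groups, while the numbers were taken to pair libraries at 11 months only. In the main edgeR fit the largest value was that of Terf1, -0.82 ± 0.49 (SE), which was -0.38 without Tet1KO replicate 3 of 3 months. Acd followed at -0.67 ± 0.45, which was -0.37 without Tet1KO replicate 3 of 11 months. The interval of Terf1 reached from -1.90 to 0.25, so that a change of more than 2-fold was not shown to be absent.

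**Figure D3:**
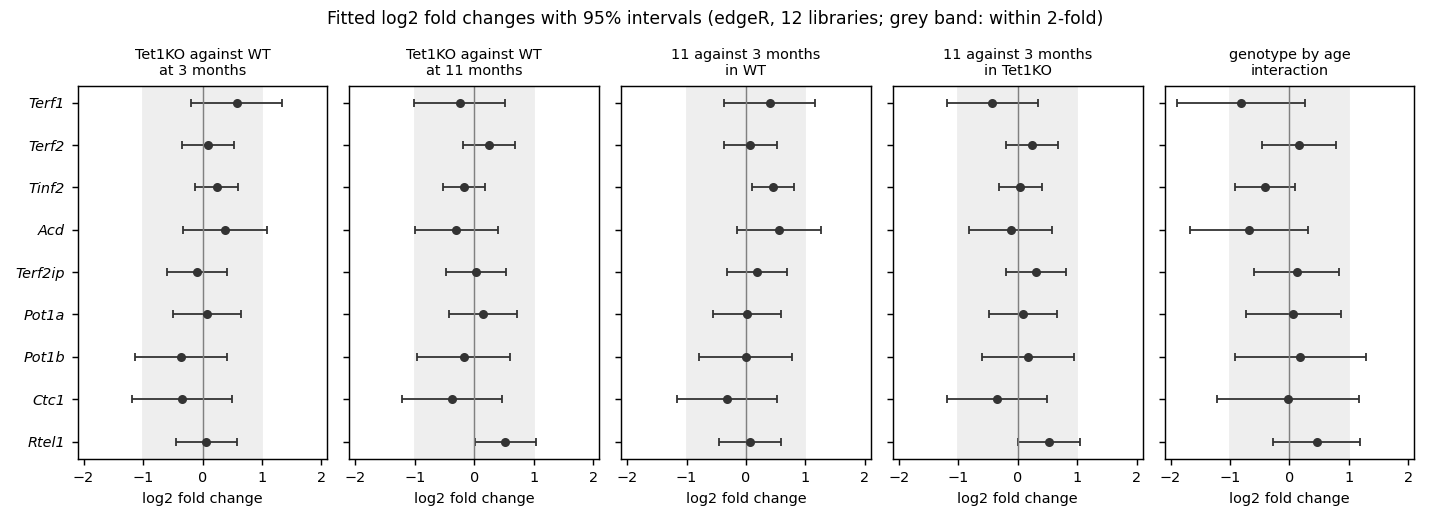
Fitted log2 fold change of each gene (points) with its 95% interval (lines) in the 5 comparisons. The grey band marks changes within 2-fold. The intervals of Tinf2 for age in WT (0.094 to 0.81) and of Rtel1 at 11 months and for age in Tet1KO (from 0.0068 in both) leave 0 out, and with adjustment over all genes none of the 3 passes.

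The genes differed in how steady they were between libraries of a group. The SD within groups was 0.55 log2 CPM for Ctc1, and 97.4% of the 1157 genes of like level (average log2 CPM within 0.5) had a smaller one. Acd (0.47), Terf1 (0.48) and Pot1b (0.49) also spread more than 94.3%, 91.5% and 90.1% of genes of their level. Terf2 (0.21) spread more than only 15.3%, Tinf2 (0.20) than 39.9% and Rtel1 (0.295) than 51.2%, with Terf2ip (0.30, 70.0%) and Pot1a (0.34, 77.2%) between. These are descriptions of the 12 libraries, and the overlap with Gmpr2 bears on the Tinf2 value.

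**Figure D4:**
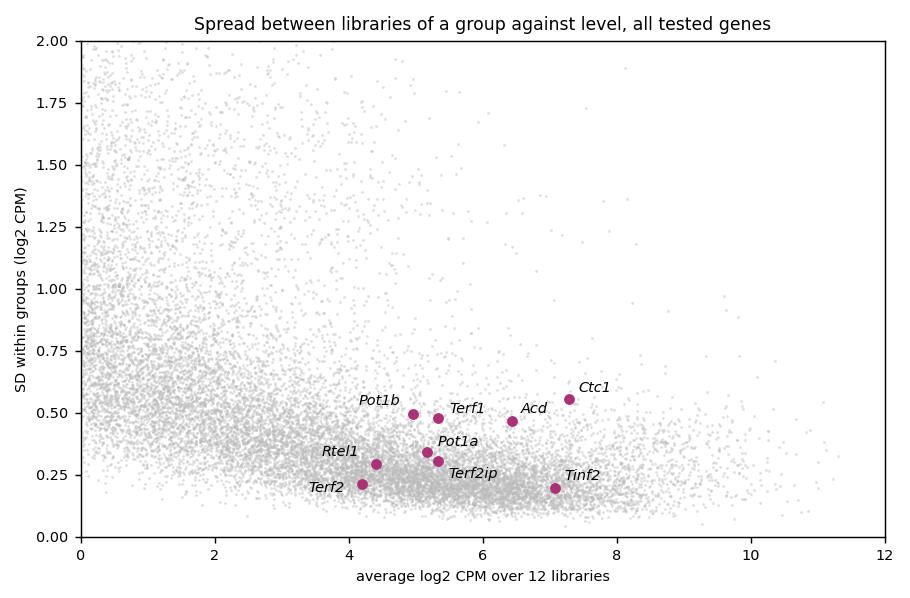
SD between libraries of a group (log2 CPM) against average log2 CPM, for tested genes (grey) and the 9 genes (purple). Genes with an average below 0 or an SD above 2 lie outside the axes. Ctc1 (0.55) lies above most genes of its level and Terf2 (0.21) low among its own.

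The 9 genes were also compared with each other across libraries. The likeness of a pair was measured as the root mean square difference of their centred log2 CPM over the 12 libraries, where 0 means the same pattern. Among the 36 pairs it was smallest for Terf2 with Terf2ip (0.256), Pot1a (0.263) and Tinf2 (0.267), and largest for Acd with Pot1b (0.776). A gene that did not vary at all would differ from Terf2 by 0.214 and from Tinf2 by 0.225. From Terf2ip it would differ by 0.281 and from Pot1a by 0.288. The small differences among these steady genes therefore do not show that they vary together. In the 2 libraries where Acd was lowest, Pot1b stood at 48.2 and 40.3 CPM, in the upper part of its range. Tinf2 and Acd together made up 46.7 to 69.4% of the summed per-kilobase level of the 7 shelterin genes, and Terf2 3.61 to 6.10%. These shares use the deposited length and all Tinf2 counts, of which 45.6 to 74.0% in a library could be shared with Gmpr2. Among the 2 nearest genes of each member there was no other member. With 19814 genes to choose from, this would hold for most sets of genes, and it does not show that the 9 vary apart. Over 19814 genes compared with each, the closest were Umps (0.072) and Zcchc17 (0.095) to Tinf2, Mcrip1 and Eri3 (0.103 each) to Acd, and Tgds (0.109) and Ext2 (0.12) to Terf2ip. Terf2 was closest to Adipor2 (0.115) and Caprin2 (0.119), Rtel1 to 2700081O15Rik (0.154) and Rnpepl1 (0.157), and Pot1a to Tmem265 (0.134) and AL732309.1 (0.18). Pot1b was closest to Gm14438 (0.17) and Gm28050 (0.176), Ctc1 to Lynx1 (0.188) and Eml6 (0.259), and Terf1 to Zfp788 (0.242) and Sdf2 (0.244). The median difference from all genes ran from 0.462 for Terf2 to 0.666 for Ctc1.

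Other genes that act at telomeres were measured from 6 lists of 62 genes, of which 61 were tested, and 0 passed the threshold in any of the 5 comparisons in edgeR. Their median log2 fold change was 0.023 for Tet1KO against WT at 3 months and 0.027 at 11 months. At an unadjusted p under 0.05 there were 1, 1, 2, 0 and 1 genes in the order of the comparisons above, none past adjustment, beside 1.14%, 1.65%, 5.67%, 2.33% and 1.57% of all genes. Counts this small among 61 genes do not stand out from those shares, and the genes below are named only for the smallest p of their list. Dclre1b, the nuclease Apollo that TERF2 brings to the end, stood at 4.82 to 6.43 CPM in WT and 9.24 to 10.2 CPM in Tet1KO at 11 months. Its log2 fold change was 0.71 ± 0.26 (SE; unadjusted p = 0.0188, adjusted p = 1 in edgeR), beside 0.22 ± 0.26 at 3 months. The list of 10 nucleases and processing genes had 7 above 0 and 3 below at 11 months, with a median of 0.029 beside 0.024 over all genes. At 3 months, Wrn, a helicase and nuclease, had the smallest p of that list, at -0.30 ± 0.17.

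Damage signalling and end joining genes, which end protection holds in check, numbered 18, all tested. They had medians of 0.019 at 3 months and 0.029 at 11 months for Tet1KO against WT. For 11 against 3 months, 13 of the 18 had a fold change above 0 in WT and 13 in Tet1KO, beside 43.6% and 48% of all genes. These were not all the same genes, as Atm was at -0.12 in WT and 0.23 in Tet1KO. The medians were 0.096 in WT and 0.088 in Tet1KO beside -0.058 and -0.014 over all genes. Not every list went this way for age. The 7 shelterin turnover genes had 6 below 0 in WT and 5 in Tet1KO. The 7 meiotic attachment genes tested had 5 below 0 in WT and 4 in Tet1KO. The remaining lists had as many genes above 0 as below, or more. Rnf8, a ubiquitin ligase at breaks, stood at 33.9 to 41.6 CPM in WT of 3 months and 47.7 to 69.0 CPM in WT of 11 months (0.52 ± 0.16, SE, unadjusted p = 0.00769, adjusted p = 0.774 in edgeR). Atm had the smallest p at 3 months, with -0.32 ± 0.18, and Nbn, of the MRN break sensor, at 11 months, with -0.22 ± 0.15.

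Genes that attach telomeres to the nuclear envelope in meiosis were present in these sorted cells. Terb2 had group means of 74.8 ± 33.7 to 92.0 ± 34.1 CPM (SD, n = 3), Terb1 of 27.6 ± 4.23 to 32.6 ± 3.38 CPM and Majin of 23.1 ± 13.9 to 30.2 ± 2.29 CPM. The spread of all 3 was widest or close to it in Tet1KO of 11 months, where the spermatocyte markers also ranged most widely, from 1788 to 4262 CPM summed over 8 genes. Of the 7 genes tested in this list, Sun2 (-0.63 ± 0.47, SE) had the smallest p at 3 months and Cdk2 (-0.16 ± 0.12) at 11 months. The symbol Kash5 matched no row.

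Among telomeric chromatin and repeat binding genes (17 tested), Hmbox1, which binds the repeats directly, stood at 7.59 to 11.6 CPM in WT and 6.06 to 7.85 CPM in Tet1KO at 3 months. Its log2 fold change was -0.53 ± 0.24 (SE) and its interaction with age 0.78 ± 0.34, with adjusted p = 1 for both in edgeR. Zfp827, a zinc finger protein of telomeric chromatin, had 0.73 ± 0.33 for age in WT. Cbx3, a heterochromatin protein, had the smallest p of the list at 11 months, with -0.21 ± 0.16. For shelterin turnover and regulation, Rnf146 (0.21 ± 0.17) and Pinx1 (0.13 ± 0.19) had the smallest p values of 7 genes at 3 and 11 months. Siah1a had the smallest for age in WT, at -0.57 ± 0.29.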

How the data were processed

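RNA of 1000 sorted cells per library was sequenced in 12 libraries. The authors deposited raw counts per gene; per the file headers they were made with featureCounts 1.6.2 on GENCODE vM17, set to a mapping quality of at least 30, unstranded, keeping multiply mapped fragments and giving a fragment over several genes to each of them. HISAT2 and SAMtools on mm10 are named in the submitters' processing notes (versions not given in the sources used here). Symbols for 53620 of 53715 genes came from GENCODE vM21. The 9 genes and the gene lists were chosen with earlier results of these data known.

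Counts were tested with edgeR 4.0.16 in R 4.3.3 (filterByExpr, 19815 genes, TMM scaling, 1 mean per group, robust quasi-likelihood F test, two-sided, Benjamini-Hochberg adjustment over all genes at 0.05). SE values were derived from the F statistic. CPM uses TMM-scaled totals of the tested genes, and log2 CPM a prior count of 2. Depth per library limits precision, since 3 counts are 0.165 to 0.36 CPM, which covers counting error only. The procedure was tested on simulated data. Named genes were all 9, fixed pathway genes, the smallest p per list and comparison, and the 2 nearest patterns per gene. Alternatives were RLE factors, no filter, DESeq2 1.42.0, limma-voom (limma 3.58.1, each library weighted by its quality), only the compared groups, a replicate block, each library left out, and both 3-month libraries that stood apart left out. Deviations of same-numbered libraries correlated at 0.371, 0.167 and 0.332 between the genotypes at 11 months, so the numbers were taken to pair them there. The main fit leaves this pairing out, and its 11-month p-values and intervals do not use it. At 3 months the values were -0.589, -0.182 and 0.296. The column headers of WT replicate 2 and Tet1KO replicate 1 of 3 months begin with DY, and those of the other libraries with AK. What this prefix stands for is not given, and its part was not tested.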

Additional observations from a re-analysis of the deposited data

How the results depend on the processing

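None of the 45 fold changes (9 genes in 5 comparisons) passed the threshold under any alternative run, and the lowest adjusted p of a member was 0.658. The edgeR count of genes past the threshold was 0 in each comparison under every edgeR and limma-voom setting. DESeq2 called 2 genes at 3 months and 3 at 11 months for genotype and 5 for age in Tet1KO, none of them a member; the cause was not tested. All 45 directions held with RLE factors, with DESeq2 and with the replicate block, which left each count of genes at 0 (at 11 months, 374 genes at an unadjusted p under 0.05 against 326 without it; with the block in the 11-month groups alone, 627 against 224 in those groups without it), and the 36 that do not concern the interaction also held with only the compared groups.

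Some directions turned, and the cause was not tested. Without a filter Pot1b for age in WT was 0.024. With limma-voom and its sample quality weights together the turned values were Terf2ip 0.025 at 3 months, Pot1b 0.31 and Rtel1 -0.089 for age in WT, Tinf2 -0.014 for age in Tet1KO, and Pot1b -0.031 and Ctc1 0.087 for the interaction. Without both 3-month libraries that stood apart they were Terf2ip -0.051 and Pot1b 0.00049 for age in WT, Tinf2 -0.040 and Pot1a -0.055 for age in Tet1KO, and Pot1a -0.20 and Ctc1 0.15 for the interaction. Leaving out 1 library turned the direction in these cases, with the range over libraries in log2 fold change. For Tet1KO against WT at 3 months: Terf2 -0.099 to 0.29, Terf2ip -0.33 to 0.21, Pot1a -0.25 to 0.23, Rtel1 -0.048 to 0.16. For Tet1KO against WT at 11 months: Acd -0.51 to 0.025, Terf2ip -0.094 to 0.12, Pot1a -0.047 to 0.26, Pot1b -0.41 to 0.17. For age in WT: Terf2 -0.027 to 0.28, Terf2ip -0.051 to 0.49, Pot1a -0.067 to 0.23, Pot1b -0.34 to 0.32, Ctc1 -0.64 to 0.013, Rtel1 -0.10 to 0.32. For age in Tet1KO: Terf1 -0.68 to 0.026, Tinf2 -0.12 to 0.17, Acd -0.33 to 0.21, Pot1a -0.057 to 0.44, Pot1b -0.053 to 0.36. For the interaction: Terf2 -0.050 to 0.35, Terf2ip -0.20 to 0.35, Pot1a -0.15 to 0.39, Pot1b -0.15 to 0.53, Ctc1 -0.36 to 0.29. Values that kept their direction but moved by over 1.5 times were Terf1 0.13 to 0.88, Tinf2 0.15 to 0.32, Acd 0.20 to 0.60, Pot1b -0.61 to -0.040, Ctc1 -0.47 to -0.071 (Tet1KO against WT at 3 months), Terf1 -0.50 to -0.065, Tinf2 -0.34 to -0.053, Ctc1 -0.70 to -0.041, Rtel1 0.28 to 0.69 (Tet1KO against WT at 11 months), Terf1 0.23 to 0.70 (age in WT), Terf2 0.14 to 0.44, Terf2ip 0.18 to 0.42, Ctc1 -0.55 to -0.11 (age in Tet1KO), Terf1 -1.15 to -0.38, Acd -0.90 to -0.37, Rtel1 0.21 to 0.63 (the interaction).

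With coding transcript lengths, the mean level in CPM per kilobase became 18.6 for Terf1, 6.91 for Terf2, 46.1 for Tinf2, 11.4 for Terf2ip, 11.6 for Pot1a, 39.6 for Ctc1 and 4.91 for Rtel1. Each gene had at least 117 counts per library, and the fold changes of the 5 comparisons had SE values of 0.16 to 0.54. These hold both counting error and the spread between libraries, and the part of each was not tested.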
